A study of Mus musculus with 18 samples.

Results

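The miR-25/92 seed family comprises mmu-miR-25-3p, mmu-miR-92a-3p, mmu-miR-92b-3p, mmu-miR-32-5p and mmu-miR-363-3p, and its members were taken as the chimeric reads that carry 1 of these names in the 6 Ago2 IP libraries. Reads of 4 of the 5 members were analysed, 3944 of 411434 chimeric reads, among 369 miRNA names in these libraries and 374 in all 12 libraries with files. miR-92a-3p was not analysed here, because no line of the files used carried its name. The data are miR-eCLIP libraries of thymocytes from mice of 6 weeks. In this assay UV light, here of 254 nm, crosslinks RNA to Argonaute 2 (Ago2), and the miRNA is then ligated to the RNA that the same protein holds, so that 1 chimeric read names a miRNA and places its target. There were 3 Ago2 IP libraries of C57BL/6 mice, called wild type here, and 3 of B6.Mirc14tm1.1Ankr mice, called knockout, which lack miR181a/b-1. A further 6 libraries, 3 of each genotype, were enriched for miR-181 after the Ago2 IP. The labels do not say that the 3 libraries of a group came from separate animals, so that p-values measure only the spread between these libraries, which may be technical.

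A miRNA finds its targets mainly through its seed, the short stretch near its 5′ end, so that miRNAs with 1 seed are expected to share target sites. miR-25 is made from an intron of Mcm7 together with miR-93 and miR-106b, miR-363 belongs to the X-linked miR-106a cluster, and miR-92a comes from that cluster and from the miR-17 cluster. These clusters are paralogs known for promoting proliferation and survival of lymphocytes, in part through the pro-apoptotic gene Bcl2l11.

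The mature sequences of the 5 members, from RefSeq on GRCm38.p6, are shown because the comparison of their targets rests on what they share and where they part. Capitals mark the seed, bases 2 to 8.
mmu-miR-25-3p: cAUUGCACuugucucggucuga
mmu-miR-32-5p: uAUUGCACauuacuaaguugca
mmu-miR-363-3p: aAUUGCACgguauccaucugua
mmu-miR-92b-3p: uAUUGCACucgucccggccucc
mmu-miR-92a-3p: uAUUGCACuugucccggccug
All 5 share the seed AUUGCAC. From base 9 on, miR-32-5p had the same base as miR-25-3p at 6 of 14 positions and miR-363-3p at 2 of 14, against 9 of 14 for miR-92b-3p and 11 of 13 for miR-92a-3p. The mature miRNAs lie at chr5:138165332-138165353 (Mir25), chr4:56895272-56895293 (Mir32), chrX:52741697-52741718 (Mir363) and chr3:89227126-89227147 (Mir92b), each on the minus strand.

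The Ago2 IP libraries held between 43983 and 117849 chimeric reads. miR-181 names made up 30.2% to 32.3% of the wild-type libraries and 1.33% to 1.45% of the knockout ones, and shares below are therefore given over non-181 reads, of which there were 29771 to 82309. All 10 thymocyte markers examined had reads, at a summed 13323 to 15868 per 1000000 chimeric reads in wild type and 12354 to 13512 in the knockout. They were unequal: Themis had 2106 reads, Rag1 1104 and Bcl11b 1039, but Rag2 had 41 and Ptcra only 2. Unlike the shares below, these marker counts and their denominators include miR-181 reads. Elsewhere RPM stands for reads per 1000000 non-181 reads. B cell, myeloid and erythroid markers had 6, 9 and 14 reads in all, and the 5 markers of thymic epithelium had none. Their part in the results was not tested. In such bulk libraries fewer cells of a type, less RNA per cell and less of that RNA joined to a miRNA cannot be told apart.

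miR-25-3p made up most of the family as counted here, which has no reads under the name miR-92a-3p. It had 853, 519 and 326 reads in the wild-type libraries and 587, 688 and 522 in the knockout, 3495 in all, and ranked 19 among the non-181 miRNAs. This was 89.8% ± 1.28 of the family in wild-type libraries and 87.2% ± 2.54 in knockout libraries (SD, n = 3 each). miR-32-5p had 52, 40 and 27 reads in wild type and 73, 49 and 42 in the knockout, and ranked 64. Its share of the family was 6.61% ± 0.964 and 7.98% ± 2.21 (SD, n = 3 each), with knockout replicate 1 the highest at 10.5%. miR-363-3p had 37, 13 and 16 reads in wild type and 35, 31 and 30 in the knockout, and ranked 76. Its share was 3.51% ± 1.09 and 4.70% ± 0.582 (SD, n = 3 each), and wild-type replicate 2 was the lowest at 2.27%. miR-92b-3p had 4 reads, 2 of each genotype, and enters no comparison of targets of its own. The groups overlapped for miR-25-3p, miR-32-5p and miR-363-3p, and no member's share of the family differed between genotypes (exact permutation test, two-sided, adjusted p between 0.5 and 1.0 over 5 tests that include the family's total; 3 against 3 libraries cannot go below p = 0.1).

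The question for the genotypes was whether the family took more of the remaining Ago2 reads once miR-181 was lost. The family, counted without miR-92a-3p, held 1.15%, 1.20% and 1.24% of non-181 reads in wild type and 1.16%, 1.15% and 1.16% in the knockout. The means were 1.20% ± 0.0464 and 1.16% ± 0.00331 (SD, n = 3 each), and the groups overlapped. The difference of -0.0384 percentage points did not exceed the spread (exact permutation p = 0.4, two-sided, adjusted p = 0.625). Over all chimeric reads, where the loss of miR-181 reads shrinks the denominator, the difference was 0.318 percentage points.

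In edgeR's quasi-likelihood test over 118 non-181 miRNAs, 6 differed between genotypes at a Benjamini-Hochberg adjusted p of at most 0.05 (5.08% of those tested), and no family member was among them. miR-25-3p stood at 10732 ± 321 RPM in wild-type and at 10089 ± 273 RPM in knockout libraries (SD, n = 3 each), and the groups did not overlap, at a lowest wild-type value of 10363 and a highest knockout value of 10316. Its log2 fold change in the knockout was -0.11 (SE 0.058, 95% interval -0.22 to 0.0049, edgeR adjusted p = 0.232). miR-32-5p gave 0.26 (SE 0.22, interval -0.18 to 0.70, edgeR adjusted p = 0.434) and miR-363-3p 0.36 (SE 0.24, interval -0.11 to 0.82, edgeR adjusted p = 0.342). The value of miR-32-5p rested on knockout replicate 1, without which it was -0.0058, and that of miR-363-3p fell to 0.15 without wild-type replicate 2. For comparison, the median over the 118 miRNAs was 0.02, and 8 in 10 lay between -0.37 and 0.44. Cluster mates of the members did not pass either: miR-93-5p, made with miR-25, gave -0.06 (edgeR adjusted p = 0.342). Of the X-linked mates of miR-363, miR-106a-5p gave 0.09, miR-20b-5p -0.04 and miR-18b-5p 0.66 (edgeR adjusted p = 0.0713 for the last). miR-19b-3p, made from the X-linked and the miR-17 cluster, gave -0.25 (edgeR adjusted p = 0.0688).

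**Figure D1:**
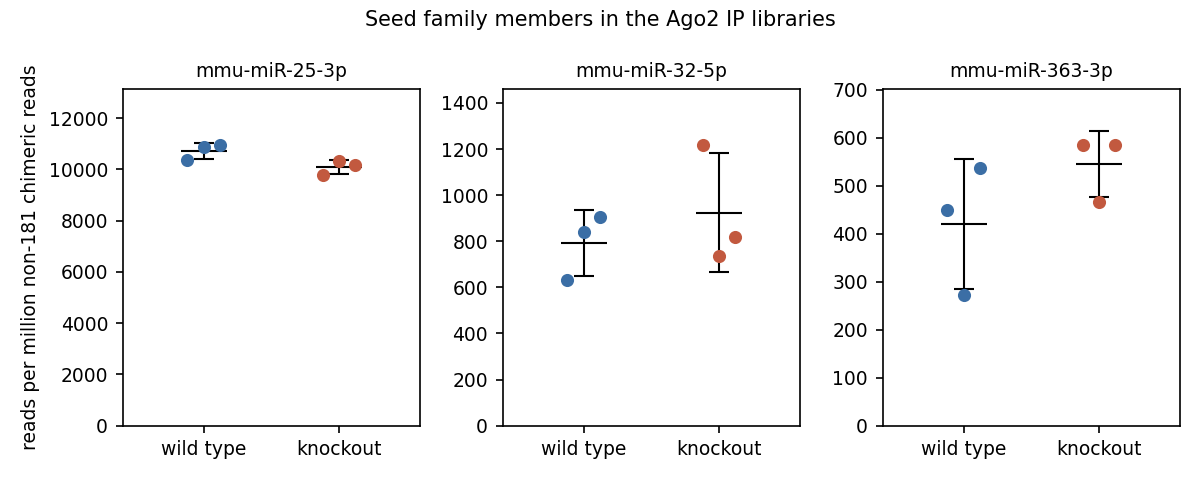
RPM, reads per 1000000 non-181 chimeric reads, of miR-25-3p, miR-32-5p and miR-363-3p in the 3 wild-type and 3 knockout Ago2 IP libraries; each point is a library, and bars give the mean and SD. miR-25-3p stands between 9786 and 10950 in every library, with the knockout just below wild type, and the genotypes overlap for miR-32-5p and miR-363-3p.

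Family reads were spread thinly over many genes. Of the 3944 reads, 3730 (94.6%) fell in 1 of 1777 gene spans, and 1176 of these spans had 1 read. A gene span is the whole RefSeq gene on GRCm38.p6, introns included. In 30 spans there were 10 or more family reads, together 19.5% of the family, 22 spans had a read in all 6 libraries, and 3 had at least 3 reads in each: Rn18s-rs5, Btg2 and Cdk17. Joined into clusters of positions at most 20 nt apart on 1 strand, the reads formed 3067 clusters. Single reads made up 2806 of them, and 11 clusters had at least 10. In protein-coding spans of known strand, 98.7% of family reads lay on the gene's strand, against 97.9% of other non-181 reads.

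The largest single target was 18S ribosomal RNA sequence. The Rn18s-rs5 span (chr17:39846354-39848202), annotated as a pseudogene and an 18S rRNA-like copy, held 65, 35 and 18 family reads in wild type and 48, 52 and 37 in the knockout, 255 in all. This was 6.29% ± 0.773 of family reads against 0.420% ± 0.0366 of other non-181 reads (SD, n = 6 libraries each), and the family's share was the higher in 6 of 6 libraries. The difference of 5.87 percentage points had an exact sign-flip permutation p of 0.03125, two-sided and the smallest that 6 libraries allow (adjusted p = 0.0347 over 10 such tests, all chosen after the data were seen). Repeated lines of the same position weighed on its size: they were 48.0% of the miR-25-3p reads there, and counted once they left a difference of 3.25 percentage points (exact permutation p = 0.03125). Ribosomal RNA has many near-identical copies, so that the copy a read came from is uncertain.

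These 18S reads came almost wholly from miR-25-3p and from 1 place. miR-25-3p had 254 of the 255, miR-32-5p had 1 and miR-363-3p had none, where 3 reads would be 1.85% of its 162. As a share of each member's reads, 7.10% ± 0.911 of miR-25-3p and 0.321% ± 0.785 of miR-32-5p lay in the span (SD, n = 6 libraries each; higher in 6 of 6, exact permutation p = 0.03125, adjusted p = 0.0347). Of the miR-25-3p reads in the span, 61 sat on chr17:39847820, in all 6 libraries. The 41-nt window around it, chr17:39847800-39847840, held 185 of the 254 (72.8%), and between 59.5% and 78.8% in each library. Of the 1387 reads of other non-181 miRNAs in the span, 36 (2.60%) lay in that window. The window was set around the miR-25-3p peak of these same reads, so that a larger miR-25-3p share there is not a test. The wider 161-nt cluster of family reads, chr17:39847666-39847826, held 251 reads of miR-25-3p and 227 of other non-181 miRNAs. Among 101 non-181 miRNAs with at least 100 reads, miR-25-3p ranked 1 by its share in 18S, at 7.27% (95% Wilson interval 6.45 to 8.18), followed by miR-107-3p with 5 of 102 reads (4.90%, interval 2.11 to 10.97). The median outside the family was 0.264%.

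The labels do not say that the enriched libraries came from material separate from that of the Ago2 IP libraries. The enriched libraries held the same place. They had 20 to 96 family reads each, and 36.9% ± 7.54 of them lay in the Rn18s-rs5 span, against 1.21% ± 0.307 of other non-181 reads (SD, n = 6 libraries each). The family's share was the higher in 6 of 6 libraries, with a lowest value of 23.1% in knockout replicate 3 and a highest of 43.8% in knockout replicate 2 (exact sign-flip permutation p = 0.03125, adjusted p = 0.0347). Of their 132 miR-25-3p reads in the span, 116 (87.9%) lay in the 41-nt window, against 3 of 228 (1.32%) of other miRNAs' reads. Repeats made up 54.5% of these miR-25-3p reads, and counting them once lowered the difference from 35.6 to 22.8 percentage points (exact permutation p = 0.03125).

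**Figure D2:**
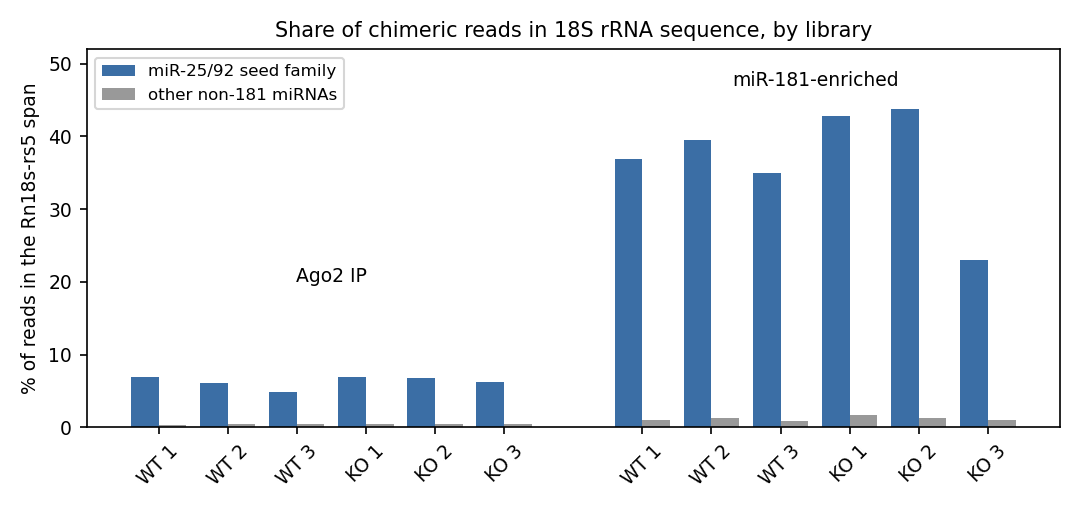
Percent of the reads of the miR-25/92 seed family (blue) and of other non-181 miRNAs (grey) that lie in the Rn18s-rs5 span, in each Ago2 IP library (left) and each miR-181-enriched library (right), by genotype and replicate. The family stands at 4.88% to 6.91% on the left and 23.1% to 43.8% on the right, above the grey bar beside it in all 12 libraries.

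To find spans where the family took a larger or smaller part than other miRNAs do, family reads were compared with those of the 358 other non-181 miRNAs in the same 6 libraries. edgeR tested 156 of 12916 spans. The family was higher in 20 of them (12.8% of those tested) and lower in 9 (5.77%), at a Benjamini-Hochberg adjusted p of at most 0.05. Of the 20, 14 reached the count minimum through family reads alone and so had to be high, and all 9 lower spans reached it through other miRNAs' reads, so that neither count is support by itself. Rn18s-rs5, Btg2, Cdk17, Malat1, Edem1 and Bcl11b were the 6 higher spans that reached it through other reads too. Without the filter, over all 12916 spans, edgeR called 17 higher, 8 of the 20 among them, and 56 lower. The median log2 fold change over the tested spans was -0.16. The split depends on the scaling: DESeq2's size factors moved the median of these spans by -2.32 and gave 8 higher and 131 lower, and TMM factors of each single library column moved it by -1.03 and gave 13 and 51. Both ran on the same 156 spans, and the spans higher under both were among the 20. The 8 of the 20 that were also called without the filter were Rn18s-rs5, Btg2, Cic, Sertad3, Cnih1, Sh3pxd2a, Dennd4b and Cd69.

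Btg2, an antiproliferative gene whose protein brings mRNAs to the deadenylase complex, was the leading protein-coding target. Its span (chr1:134074865-134079155) had 11, 16 and 4 family reads in wild type and 12, 14 and 8 in the knockout, and every library had at least 4. Family reads were 65 of its 619 non-181 reads, and the log2 fold change over other miRNAs was 3.42 (SE 0.29, edgeR adjusted p = 1.44e-27). miR-25-3p gave 54 of them, miR-32-5p 8 and miR-363-3p 3. The reads lay in several separate clusters along the gene, and the largest, chr1:134075966-134076001, held 16 family reads, 12 of miR-25-3p and 4 of miR-32-5p. In it 69.6% of non-181 reads belonged to the family.

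Cdk17, a cyclin-dependent kinase of the PCTAIRE group, had 6, 5 and 3 family reads in wild type and 4, 3 and 8 in the knockout, all of miR-25-3p. The log2 fold change was 2.80 (SE 0.40, edgeR adjusted p = 7.09e-11), and it missed the threshold under DESeq2 (0.46) and without a filter on low counts (1.21). Of its 29 reads, 24 lay in a single 57-nt cluster at chr10:93239847-93239903, beside 24 reads of other miRNAs, 12 of them of miR-16-5p.

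Cic, Sertad3, Cnih1, Sh3pxd2a and Dennd4b had fewer reads, but each had at least 1 family read in all 6 libraries. They reached the count minimum through family reads alone, and their log2 fold changes over other miRNAs and adjusted p are therefore those of the edgeR fit without the filter, in which the values of the spans tested in both fits were lower by a median of 1.58. Cic, the transcriptional repressor capicua, had 2, 1 and 2 reads in wild type and 2, 8 and 8 in the knockout, a log2 fold change of 3.38 (edgeR adjusted p = 3.32e-11). Its main cluster, chr7:25294045-25294090, held 3 wild-type and 18 knockout reads and lay at 0.997 of the gene's length, counted from its 5′ end. The knockout values ran from 2 to 8 and overlapped wild type, and the span was below the count minimum of the genotype comparison. Sertad3, a transcriptional coregulator, had 1 read in each wild-type library and 3, 7 and 2 in the knockout, all of miR-25-3p, and family reads were 15 of its 34 (log2 fold change 4.49, edgeR adjusted p = 7.75e-11). Cnih1, a cornichon protein of cargo export from the endoplasmic reticulum, had 1, 2 and 1 reads in wild type and 2, 3 and 3 in the knockout, 12 of its 30 (4.24, edgeR adjusted p = 8.94e-08). Sh3pxd2a, a scaffold protein of podosomes, had 15 of 84 (2.702, edgeR adjusted p = 5.24e-05), and Dennd4b, a DENN-domain activator of Rab GTPases, 10 of 34 (3.58, edgeR adjusted p = 5.24e-05). At Dennd4b 9 of the 10 lay in a 19-nt cluster, chr3:90280558-90280576, in which no other non-181 miRNA had a read.

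Malat1, an abundant nuclear long non-coding RNA, had 14, 1 and 4 family reads in wild type and 9, 14 and 6 in the knockout, and the family was the higher in 5 of 6 libraries. Its log2 fold change was 2.19 (SE 0.29, edgeR adjusted p = 4.64e-12) but -0.24 under DESeq2's size factors. The members were unequal here. miR-32-5p had 15 of its 283 reads in the span, 5.04% ± 1.83 over libraries, and miR-25-3p 31 of 3495, 0.837% ± 0.522 (SD, n = 6 libraries each; miR-32-5p higher in 6 of 6, exact permutation p = 0.03125, adjusted p = 0.0347). By library, miR-32-5p had 4, 1 and 1 reads in wild type and 4, 3 and 2 in the knockout. In wild-type replicate 2 it was 1 read against 0 of miR-25-3p. This contrast was chosen after these counts were seen, so that its p-value is not support by itself. All 15 miR-32-5p reads and 26 of the miR-25-3p reads fell in 1 cluster, chr19:5797557-5797632, together with 351 reads of other miRNAs, 145 of them of miR-16-5p.

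The other 11 spans with a larger part of family reads are named here after their values were seen. All but Edem1 and Bcl11b reached the count minimum through family reads alone. The log2 fold changes of all 11 are therefore given from the edgeR fit without the filter. Cd69, an early activation marker that holds cells in the tissue, had 12 of 102 reads (log2 fold change 3.59), Ccr9, a chemokine receptor of thymocytes, 12 of 212 (2.45), and Zmiz1, a cofactor of Notch1, 8 of 130 (2.57). Eif4g2, a translation initiation factor, had 13 of 143 (1.59). Cd69 was the only 1 of the 11 called without the filter. DESeq2 ran on the spans that passed the filter, so that its call of Cd69 is not support by itself. Under DESeq2 Eif4g2 stood at 0.86, Zmiz1 at 0.30 and Ccr9 at 0.17, and none of them was called. The transcription factors Ets1 and Bcl11b gave 0.13 and -0.37, the ubiquitin ligase gene Mylip 0.25 and the deadenylase gene Cnot6l 0.16. All 4 were negative under DESeq2's size factors. Edem1, Itpr1 and Arl15 gave 0.22, 0.56 and 0.44 and were negative under those size factors too.

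**Figure D3:**
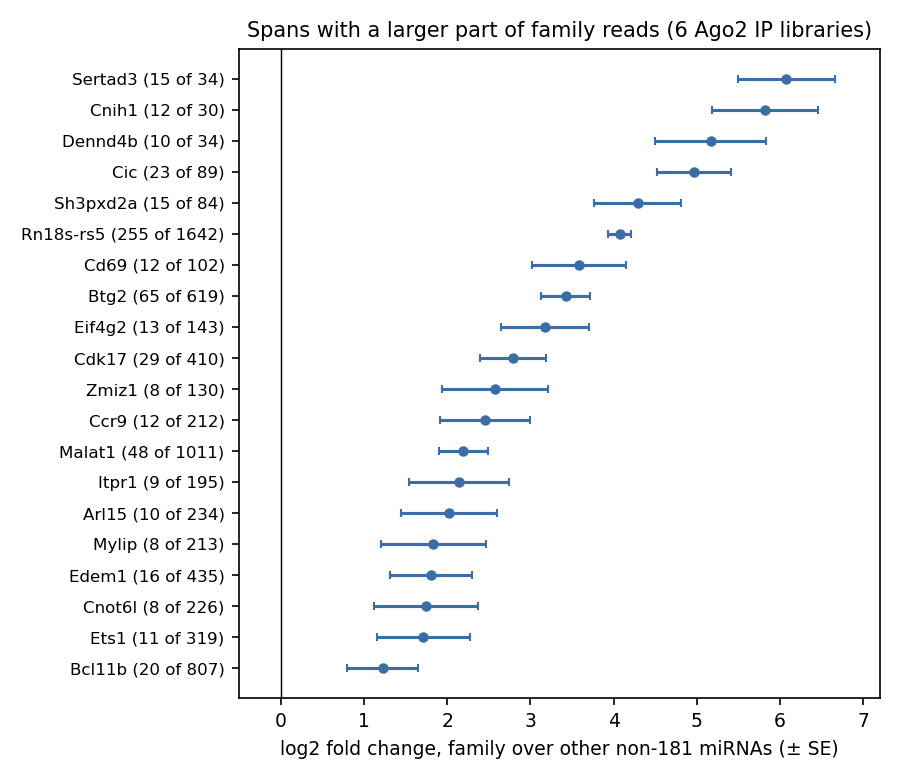
Log2 fold change with its SE (edgeR, 6 Ago2 IP libraries) of family reads over reads of other non-181 miRNAs, for the 20 spans higher in the family in the fit with the count minimum, which 14 of them reached through family reads alone; in brackets, family reads of all non-181 reads of the span. Sertad3 is the highest at 6.08 and Bcl11b the lowest at 1.22. Malat1, Edem1, Itpr1, Arl15, Ets1, Mylip, Bcl11b and Cnot6l fall below 0 under DESeq2's size factors. Without the count minimum, the values of spans tested in both fits moved by a median of -1.58.

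Of the 9 spans with a smaller part of family reads, 8 had no family read. ND4 and ND1, subunits of respiratory complex I encoded in mitochondria, had 678 and 463 reads of other miRNAs. The floor of 3 family reads over the 6 libraries puts ND4 at least 2.67-fold lower in the family and ND1 at least 1.82-fold lower. As these spans entered the test through the reads of other miRNAs, their p-values are not given. Taok1, a stress-activated kinase (556 other reads), and Xiap, an inhibitor of caspases (554), had bounds of 2.19-fold and 2.18-fold lower. Znrf1, Zbtb20 and Trp53inp1 had bounds of 2.10, 1.94 and 1.70, and Cux1 had 2 family reads beside 910 others (log2 fold change -2.30, SE 0.85). The ninth, Sh3kbp1, was at least 1.59-fold lower. These calls rest on the full set of libraries: between 1 and 6 spans were called lower when 1 library was left out, and none with either genotype alone. miR-142a-3p alone gave 135712 of the 333858 reads of other miRNAs. Without it 70 spans were tested, and ND4, ND1, Taok1 and Sh3kbp1 were not among them. All mitochondrial reads together were 0.495% ± 0.411 of the family and 1.23% ± 0.0681 of other miRNAs' reads (SD, n = 6 libraries each; lower in 6 of 6, exact permutation p = 0.03125, adjusted p = 0.0347). With repeated lines counted once the difference missed the threshold (-0.489 percentage points, exact permutation p = 0.0625). The mitochondrial share was not compared without miR-142a-3p.

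Within protein-coding spans, family reads lay closer to the 3′ end. The last 10% of the span's length held 31.5%, 32.4% and 35.1% of family reads in wild type and 32.6%, 36.7% and 34.2% in the knockout, and 25.3% to 26.5% of other miRNAs' reads. The means were 33.8% ± 1.95 and 26.0% ± 0.447 (SD, n = 6 libraries each), with no overlap and the family higher in 6 of 6 libraries (exact permutation p = 0.03125, adjusted p = 0.0347). These shares are over the 2683 family reads, of 3330 in protein-coding spans, that lay on the gene's strand in spans whose strand was known. Exons and UTRs were not analysed here. As a whole, protein-coding spans took 84.6% ± 1.20 of family reads and 89.3% ± 0.470 of others (SD, n = 6 libraries each; lower in 6 of 6, exact permutation p = 0.03125, adjusted p = 0.0347), but without the 18S reads the family was the higher by 0.577 percentage points (exact permutation p = 0.406).

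**Figure D4:**
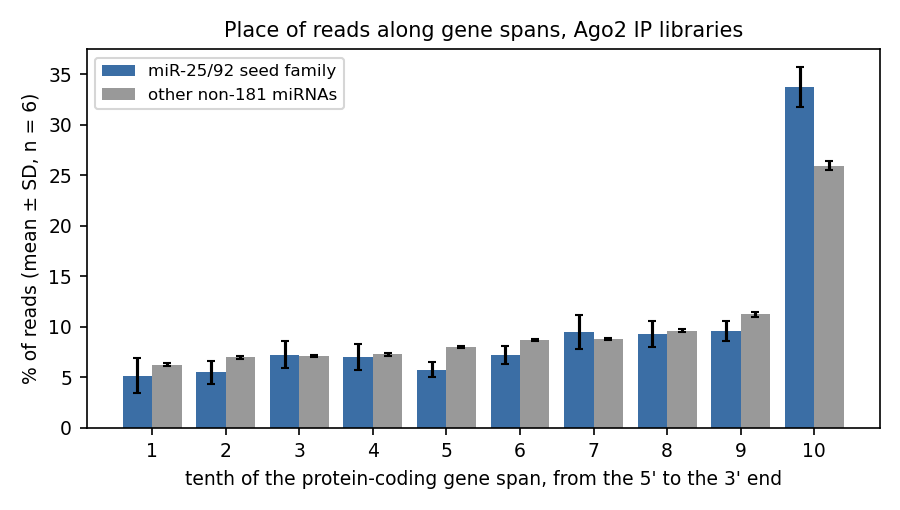
Percent of reads in successive stretches of 10% of the protein-coding gene span, from the 5′ to the 3′ end, for the family (blue) and other non-181 miRNAs (grey); bars are means and whiskers SDs over 6 Ago2 IP libraries. The last stretch stands at 33.8% for the family and 26.0% for the others, while the first holds 5.16% and 6.27%.

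Reads of miR-32-5p and miR-363-3p lay beside miR-25-3p reads more often than reads of other miRNAs did. Most of them still lay apart from any miR-25-3p read. The miR-25-3p reads of all 6 libraries were pooled as 1 reference, so that the shares of the libraries are not fully separate. Of miR-32-5p reads, 12 of 52, 7 of 40 and 5 of 27 in wild type and 20 of 73, 12 of 49 and 10 of 42 in the knockout lay within 20 nt of a miR-25-3p read on the same strand. This was 22.5% ± 3.76, against 1.43% ± 0.0764 of reads of other non-181 miRNAs (SD, n = 6 libraries each; higher in 6 of 6, exact permutation p = 0.03125, adjusted p = 0.0347). Without Malat1 the difference fell from 21.04 to 17.05 percentage points. For miR-363-3p the share was 11.2% ± 8.30 (SD, n = 6; higher in 6 of 6, exact permutation p = 0.03125, adjusted p = 0.0347). It rested on 16 reads, ran from 2.703% in wild-type replicate 1 to 23.1% in wild-type replicate 2, and missed the threshold at a distance of 10 nt and against the miR-25-3p reads of the other 5 libraries alone (exact permutation p = 0.0625 for both). Without wild-type replicate 2 or knockout replicate 3, the difference for miR-363-3p fell from 9.75 to 6.22 and 5.44 percentage points.

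Among 99 other miRNAs with at least 100 reads outside 18S, miR-32-5p ranked 1 by this share, at 23.4% (66 of 282 reads, 95% Wilson interval 18.8 to 28.7), and miR-363-3p ranked 3, at 9.88% (16 of 162, interval 6.17 to 15.4). The median outside the family was 1.02%. miR-503-5p, which has another seed, ranked 2 at 14.5%, but all 36 of its reads beside miR-25-3p lay in Malat1. The 66 miR-32-5p reads were spread over 31 spans, led by Malat1 with 15 and Btg2 with 8, and the 16 miR-363-3p reads over 13 spans. Of the 3067 family clusters, 45 held 2 or more members and 4 held 3. One of the 4, at Pitpnm2 (chr5:124119523-124119551), had 3 reads of miR-25-3p, 4 of miR-32-5p and 1 of miR-363-3p, and another, at Lmbr1l (chr15:98904024-98904044), had 7, 2 and 1. Fam160b1 (chr19:57388887-57388910) had 6 of miR-25-3p and 4 of miR-32-5p.

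**Figure D5:**
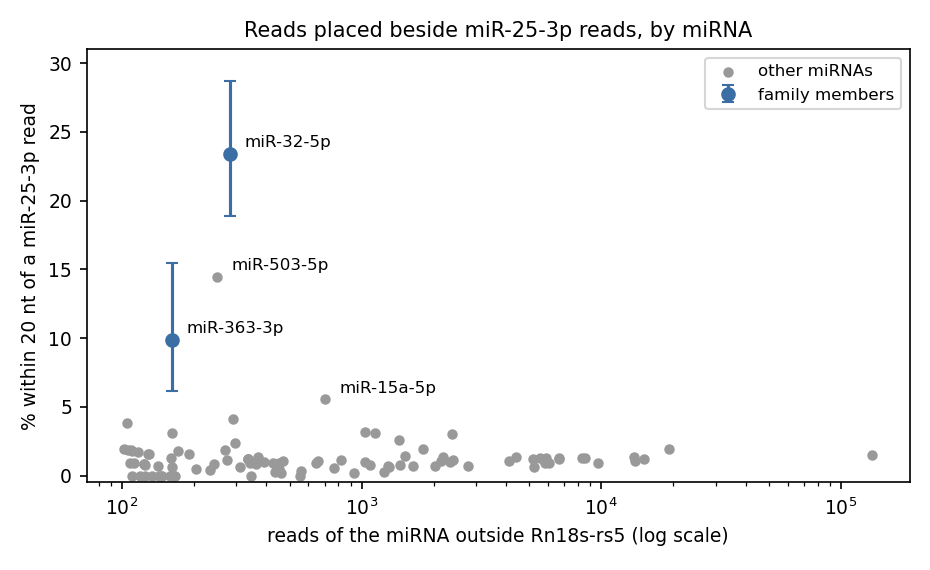
For each of 99 miRNAs with at least 100 reads outside Rn18s-rs5, the percent of its reads within 20 nt of a miR-25-3p read (vertical) by its number of reads (horizontal, log scale), pooled over 6 Ago2 IP libraries; blue bars are 95% Wilson intervals, which cover counting error only. miR-32-5p stands highest at 23.4%, and the median outside the family is 1.02%.

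A list of 15 published targets of the family was read in the same way. Family reads were found at 8 of them, 95 reads in all, or 2.41% of the family's reads against 0.316% of other miRNAs' reads. Btg2 held 65 of the 95 and was the only one of the list that could be tested, as the others were below the count minimum. Of the 12 list genes with at least 10 non-181 reads, 7 had a family share above the 1.17% of all non-181 reads, as did 23.0% of the 5314 spans with that many reads. Bcl2l11, which encodes the pro-apoptotic protein Bim, had 4, 1 and 1 family reads in wild type and 3, 0 and 0 in the knockout, 9 of its 53 reads. Lats2, a kinase of the Hippo pathway, had 4 of 18 reads, Map2k4, a kinase of the JNK pathway, 6 of 70, and the acetyltransferase gene Kat2b 6 of 111. Fbxw7, a ubiquitin ligase of Notch and Myc, had 3 of 119, and Tob1, a relative of Btg2, 1 of 11. Cdkn1c had a single read, of the family. The 7 genes without a family read were Klf2, Klf4, Smad7, Itga5, Itgav, Sirt1 and Socs5, which had at most 50 reads of other miRNAs.

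Whether family reads moved between targets in the knockout could be tested for 2 spans. The knockout log2 fold change of Btg2 was -0.09 with an SE of 0.32, and that of Rn18s-rs5 was 0.01 with an SE of 0.13 (adjusted p = 0.947 for both, by edgeR). Neither passed, and neither had an unadjusted p under 0.05. Without the filter, edgeR called 0 of 1777 spans and 7 had an unadjusted p under 0.05, and DESeq2 called 0. The other spans, Malat1, Cdk17 and Cic among them, were below the count minimum of this comparison.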

How the data were processed

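The chimeric reads of 6 Ago2 IP and 6 miR-181-enriched libraries were used, and the 6 input samples were not analysed here. Each line of the deposited files is a count of 1 read at a 1-nt position, with strand and miRNA name, per the file contents. The submitters' processing notes name Bowtie2 2.4.5, STAR 2.7.10, UMI-tools 1.1.1, SAMtools 1.11 and bedtools 2.30.0 and the builds mm10 and GRCm38.p6, with no settings. Reads were named by RefSeq gene spans of GRCm38.p6, which give no exons, and a hairpin or a single protein-coding span took precedence. Shares carry 95% Wilson intervals where given, and 3 reads is the floor of a zero. Intervals and floors cover counting error only.

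Counts were tested with edgeR 4.0.16 (quasi-likelihood, minimum count 10) in R 4.3.3. miRNAs were scaled by TMM, and family against other reads, with the library as block, by TMM factors of the reads summed per class. The latter replaced the planned factors of each column, which gave false calls on simulated data; the change was made after both results had been seen. Shares of libraries were compared by exact permutation tests (scipy 1.17.1). Alternatives included DESeq2 1.42.0, run on what passed the same count minimum. Replicate numbers were not taken as pairs of libraries in the main tests.

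The members, gene lists and tests were chosen with earlier results of these data known. Spans named were the 15 with the most family reads among those with at least 3 in each library, the 8 of smallest p in each direction, and the published list, from whose counts 1 further gene, not reported here, was left out; clusters named were the 10 largest with at least 3 reads in each library. Further clusters, the paired tests, the 20-nt distance and the 18S window were chosen after values were seen. The planned comparison of miR-92a-3p with miR-25-3p and the seed-match search were not run.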

Additional observations from a re-analysis of the deposited data

Results flagged for a closer look

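Family reads were present in libraries outside the main measurement. The miR-181-enriched libraries, in which miR-181 was selected after the Ago2 IP, held 76, 48 and 20 family reads in wild type and 70, 96 and 26 in the knockout. They made up between 1.26% and 2.12% of the non-181 reads of these libraries, with 95% Wilson intervals from 0.820% at the lowest to 2.64% at the highest. The means were 1.74% ± 0.435 in wild type and 1.72% ± 0.290 in the knockout (SD, n = 3 each). The lowest value of each genotype was that of replicate 3. A difference from the Ago2 IP was not tested.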

How the results depend on the processing

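Depth limits most targets to single reads, so that absence from a span says little. Of the knockout comparisons, the family's share turned to 0.318 percentage points over all reads, and all members stayed uncalled. The count of non-181 miRNAs called, 6, became 19 without a filter, 10 with miR-181 kept in the table, 19 with a replicate block, and 0 to 11 without 1 library. Deviations of same-numbered libraries had correlations of -0.18, 0.0039 and 0.0066, which cannot exclude that such libraries were handled together. The block changed no call of a member. The family share ran from -0.0625 to -0.0162 without 1 library, miR-92b-3p's share of the family from -0.0066 to 0.0994, and the log2 fold change of miR-32-5p from -0.0058 to 0.43. For reads per span, Btg2 turned to 0.126 without a filter and 0.0194 with repeats counted once (-0.47 to 0.39 without 1 library), and Rn18s-rs5 to -0.0055 with repeats counted once (-0.0597 to 0.128).

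For family against other reads, 29 spans were called, 20 higher and 9 lower. DESeq2 called 139 (8 and 131), no filter 73 (56 lower), TMM factors of each column 64 (13 and 51), library sizes 14 lower, the comparison without miR-142a-3p 19 (13 higher), wild type alone 0 lower, and the knockout alone 15 (0 lower). Without 1 library there were 19 to 26 calls, 16 to 21 higher and 1 to 6 lower. DESeq2 turned Malat1 to -0.24, Edem1 to -0.59, Itpr1 to -0.19, Arl15 to -0.28, Ets1 to -0.64, Mylip to -0.45, Bcl11b to -1.08 and Cnot6l to -0.60, and no filter turned Bcl11b to -0.37. The cause was not tested, apart from the shift of the median given with the split.

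Paired comparisons over 5 libraries cannot go below an exact permutation p of 0.0625 and so say nothing about the threshold, but none changed direction. In percentage points, leaving out 1 library gave 5.75 to 6.16 for 18S, 34.3 to 38.4 for 18S in the enriched libraries, 6.50 to 7.03 for 18S of miR-25-3p against miR-32-5p, -0.867 to -0.659 for mitochondrial reads, -5.15 to -4.41 for protein-coding spans, 7.18 to 8.15 for the last 10% of spans, 17.8 to 21.8 and 5.44 to 10.9 for miR-32-5p and miR-363-3p beside miR-25-3p, and 3.72 to 4.55 for Malat1. Mitochondrial reads missed the threshold with repeats counted once (-0.489), and so did miR-363-3p at 10 nt (9.25) and against other libraries (8.32). Without 18S reads, protein-coding spans turned to 0.577 and the excess of repeated family reads (1.30, exact permutation p = 0.0625) to -1.37. The alternatives of the miR-92a-3p and seed-match comparisons were not run.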
